A study of Bos taurus with 6 samples.

Results

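The genes described here make procollagen ready for secretion and fibril assembly: they hydroxylate its chains, fold them, carry them out of the endoplasmic reticulum (ER) and help to cut off the propeptide. They are P4HA1, P4HA2, P4HA3, P4HB, PLOD2, SERPINH1, FKBP10, SEC23A, PCOLCE and PCOLCE2. They were found by gene symbol, as every probe set whose only symbol in the platform's annotation was that of a member. This gave 13 probe sets for the 10 genes, of 9155 genes named on the array. PLOD2, PCOLCE and SEC23A had a second probe set each.

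The study grew bovine bone marrow mesenchymal stem cells (MSCs), cells that can become cartilage, bone or fat cells, inside agarose gel in a chemically defined medium and measured total RNA on Affymetrix bovine arrays. There were 6 conditions with 1 array each. Cells without transforming growth factor beta 3 (TGF-beta3), called undifferentiated in the labels, were taken at days 3, 21 and 42. Cells with TGF-beta3, called chondrogenic, were taken at days 21 and 42, and a further culture with TGF-beta3 was grown for 21 days and then put under dynamic compression for 21 more, up to day 42. No age, donor number or pooling of animals is given in the sources used here, and no array is a replicate of another.

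Collagen is built inside the ER as procollagen. Prolyl 4-hydroxylase, a complex of alpha and beta subunits, hydroxylates prolines so that the helix of 3 chains stays folded at body temperature. Lysyl hydroxylases modify lysines that later form crosslinks, and dedicated chaperones hold the helix until COPII vesicles carry it to the Golgi. Outside the cell the C-terminal propeptide is removed by BMP1-type proteinases, with help from procollagen C-proteinase enhancers, before fibrils form. In cartilage this route serves mainly type II collagen, and in fibrous tissue type I.

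The values are linear signals, scaled by the authors to the same trimmed mean on every array. Signals of different probe sets are not comparable as amounts, so each probe set is set only against itself. A signal under 15.1, the 40th percentile of the table, was treated as not measured. All 13 member probe sets were above this floor on all 6 arrays, so no member's value is a bound. Hybridisation spikes, foreign transcripts added in fixed amounts, had a median signal of 2618 to 3727 on 4 arrays, and of 7304 and 5823 on the unloaded and loaded day 42 arrays with TGF-beta3. These shifts touch every day 42 comparison with TGF-beta3. Control transcripts' 3 prime to 5 prime ratios lay between 1.51 and 2.27 for GAPDH and between 5.08 and 9.10 for eIF4E, and their part in the results was not tested. In bulk RNA, a change in the number of cells of a type cannot be told apart from a change of RNA per cell.

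With TGF-beta3, 9 of the 10 genes rose over days 21 and 42 and 1, PCOLCE2, fell. The largest mean differences were those of FKBP10, P4HA2 and P4HA1, with log2 values of 2.78, 2.65 and 2.30. The test was limma with a term for day on the 4 unloaded arrays of days 21 and 42, Benjamini-Hochberg adjusted over 14839 probe sets, with 1 residual degree of freedom. Of all 6835 genes tested, 7.11% rose and 7.7% fell. Of the 1677 genes with a mean signal in the range of the members' own, 10.1% rose and 9.54% fell. The members' median mean difference was log2 1.51, against 0.14 for all genes tested. The members were chosen with earlier results of these data known, so their distance from all genes is a description and no independent test. The prior variance, shared by probe sets of like brightness, was worth 49.8 degrees of freedom. The p-values and the standard errors given after ± therefore rest mainly on that pooled spread and not on separate cultures. A standard error here is not the spread of a gene's own responses at the 2 days. Scaled to the spikes, all 9 kept a positive mean but none rose (limma, adjusted; 2 at an unadjusted p under 0.05), and PCOLCE2 still fell. With either the day 21 or the day 42 array lacking TGF-beta3 left out, 3 members rose and none fell (limma, adjusted; at an unadjusted p under 0.05, 1 fell without the first and 0 without the second).

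**Figure D1:**
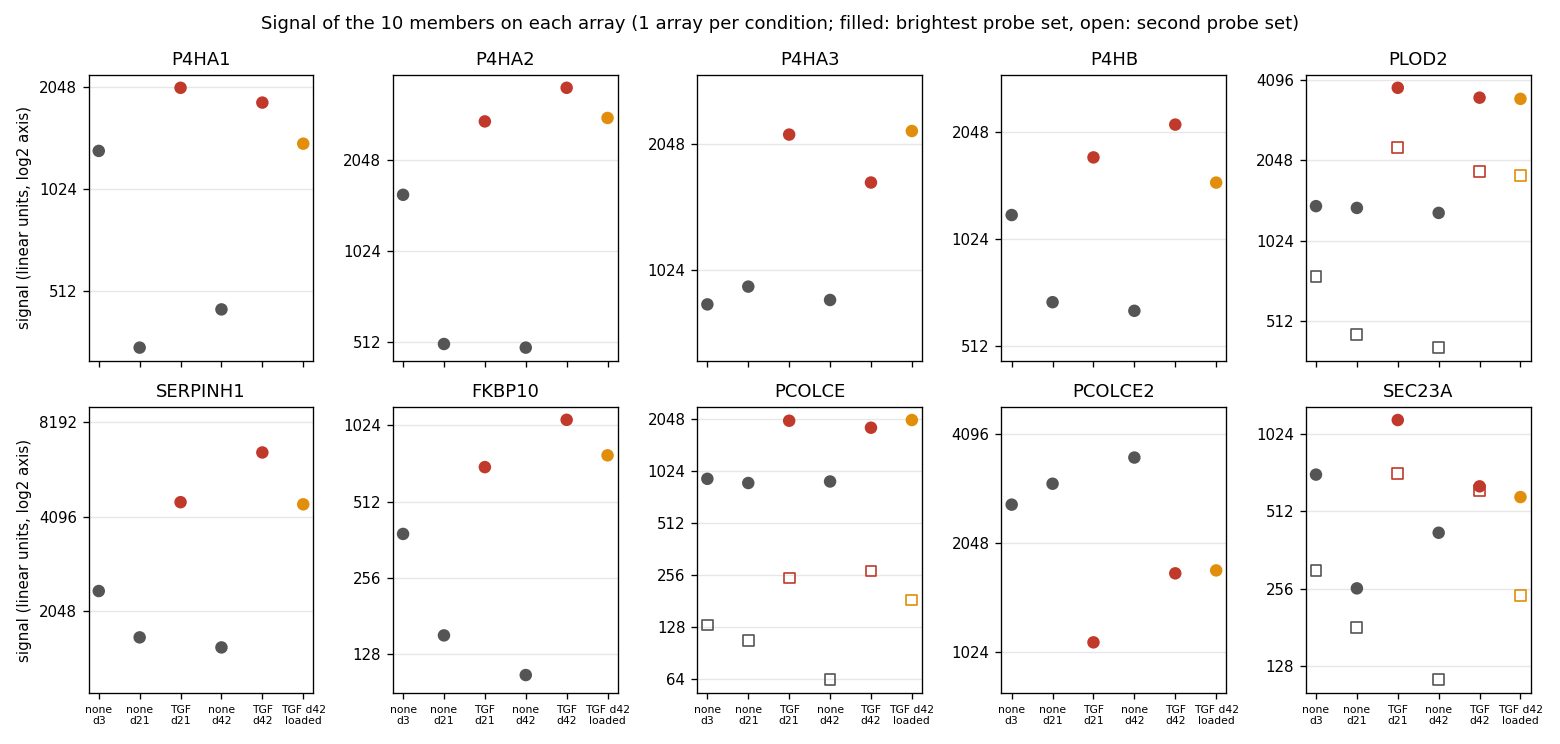
Signal of each member on the 6 arrays (vertical log2 axes with their own ranges, linear signal units; grey without TGF-beta3, red with it, orange with it and loaded; filled circles for the brightest probe set and open squares for the second). With the authors' scaling, all 3 arrays with TGF-beta3 lie above all 3 without it for 8 genes. For PCOLCE2 they lie below, and for SEC23A the groups overlap.

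Prolyl 4-hydroxylase was higher with TGF-beta3 through all of its subunits. P4HA1, the most widely expressed alpha subunit, had signals of 1327, 347 and 450.1 without TGF-beta3 at days 3, 21 and 42. It had 2041 and 1845 with it at days 21 and 42, and 1394 when loaded. The day 3 signal lay just under the loaded one, and all arrays with TGF-beta3 were above all without it. The distance was 5.88-fold at day 21 and 4.10-fold at day 42. The gene rose, and limma put the log2 mean at 2.30 ± 0.34 (SE), adjusted p = 9.67e-07.

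P4HA2, the alpha subunit known from mouse cartilage and bone cells, went from 1570 at day 3 to 505 and 491 at days 21 and 42 without TGF-beta3. With TGF-beta3 it had signals of 2744 and 3544, and 2817 when loaded. No array of one kind overlapped with the other. Its signal with TGF-beta3 was 5.44 times that without it at day 21, and 7.22 times at day 42. P4HA2 rose (log2 mean 2.65 ± 0.34, limma adjusted p = 3.33e-08).

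P4HA3, the least studied alpha subunit, differed from the other alpha subunits in its level over time. Its signals without TGF-beta3 were 846, 934 and 867 at days 3, 21 and 42, with none far from the others. With TGF-beta3 they were 2160 and 1658, and 2203 when loaded. P4HA3 rose (log2 mean 1.07 ± 0.34, limma adjusted p = 0.0247), with 2.31-fold at day 21 and 1.91-fold at day 42. The call was lost without the day term (adjusted p = 0.102 by limma), without a variance trend, and with median centring or spike scaling.

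P4HB, the beta subunit, is also protein disulphide isomerase, which forms and reshuffles disulphide bonds in many secreted proteins. Its signals were 1197, 680.4 and 643 without TGF-beta3 at days 3, 21 and 42, and 1739, 2151 and, loaded, 1477 with it. The groups did not overlap, with the loaded array the lowest of those with TGF-beta3. P4HB rose (log2 mean 1.55 ± 0.34, limma adjusted p = 7.25e-04).

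PLOD2, the lysyl hydroxylase that acts on the telopeptides at the chain ends and so sets the type of crosslink, rose on both of its probe sets. The brighter one had signals of 1377, 1356 and 1299 without TGF-beta3, and of 3815, 3504 and, loaded, 3468 with it. The arrays of each kind lay close together, and the log2 mean was 1.46 ± 0.35 (limma adjusted p = 0.00209). The dimmer probe set had 753, 457 and 407 without TGF-beta3, and 2278, 1860 and, loaded, 1796 with it. Its log2 mean was 2.25 ± 0.34 (limma adjusted p = 1.20e-06). From day 3 to day 21 without TGF-beta3 the dimmer one was lower by more, with a log2 difference of -0.72 against -0.02 for the brighter one.

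Both chaperones rose with TGF-beta3. SERPINH1 (HSP47) binds the folded procollagen helix in the ER. Its signals were 2369, 1685 and 1565 without TGF-beta3 at days 3, 21 and 42, and 4553, 6562 and, loaded, 4482 with it. All arrays with TGF-beta3 were above all without it, and SERPINH1 rose (log2 mean 1.75 ± 0.36, limma adjusted p = 3.65e-04). Its log2 difference was 1.43 at day 21 and 2.07 at day 42, but 1.14 and 0.75 with spike scaling and 1.53 and 1.48 with median centring, so the order of the days turned with the scaling.

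FKBP10 (FKBP65) is a peptidyl-prolyl isomerase and collagen chaperone that is also needed, in human bone, for the lysyl hydroxylation of telopeptides. Its signals were 381 at day 3, and 152 and 106 at days 21 and 42 without TGF-beta3. With TGF-beta3 they were 700.0 at day 21, 1076 at day 42 and 779 when loaded. It had the widest range of all members, 10.2-fold between its lowest and highest array. The log2 difference was 2.21 at day 21, where the spikes differed by 0.30, and 3.35 at day 42, where they differed by 1.32. Scaled to the spikes it was 1.91 and 2.03. FKBP10 rose (log2 mean 2.78 ± 0.40, limma adjusted p = 4.34e-07).

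SEC23A, part of the inner COPII coat and known in human, mouse and zebrafish for its need in procollagen export, was the member whose probe sets disagreed most. The brighter one had signals of 711, 257 and 422 without TGF-beta3 at days 3, 21 and 42, and of 1159 and 640 with it at days 21 and 42, and 581 when loaded. Here the day 3 array without TGF-beta3 was above both day 42 arrays with it. The log2 difference was 2.18 at day 21 but 0.60 at day 42. The other probe set had 300.1, 181 and 113 without TGF-beta3, and 719, 617 and, loaded, 240.1 with it. Its log2 differences were 1.99 and 2.45. Both probe sets rose, the brighter with a log2 mean of 1.39 ± 0.37 (limma adjusted p = 0.00655) and the other with 2.22 ± 0.40 (limma adjusted p = 3.59e-05). The call on the brighter one was lost with the loaded array added (adjusted p = 0.0668 by limma). It was also lost with median centring or spike scaling, and without a variance trend or the day term.

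The enhancers of propeptide removal went opposite ways. PCOLCE, which binds the procollagen propeptide and speeds its cleavage by BMP1, had signals of 924, 873 and 891 without TGF-beta3 on its brighter probe set, and 2005, 1827 and, loaded, 2024 with it. PCOLCE rose (log2 mean 1.12 ± 0.34, limma adjusted p = 0.0184), with no overlap between the groups. The call was lost without the day term (limma adjusted p = 0.0795), with median centring (0.292), without a variance trend (0.193) and with spike scaling. The dim probe set had 131, 107 and 63.2 against 246, 270 and, loaded, 183, and also rose (adjusted p = 0.0260 by limma).

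PCOLCE2, the related second enhancer, had signals of 2619, 2991 and 3533 without TGF-beta3 at days 3, 21 and 42. With TGF-beta3 they were 1091 at day 21, 1692 at day 42 and 1724 when loaded. All arrays with TGF-beta3 were below all without it. The gene was 2.74-fold lower at day 21 and 2.09-fold lower at day 42, and it fell (log2 mean -1.26 ± 0.35, limma adjusted p = 0.00895). Without the day term (adjusted p = 0.100 by limma) or without a variance trend it was not called.

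**Figure D2:**
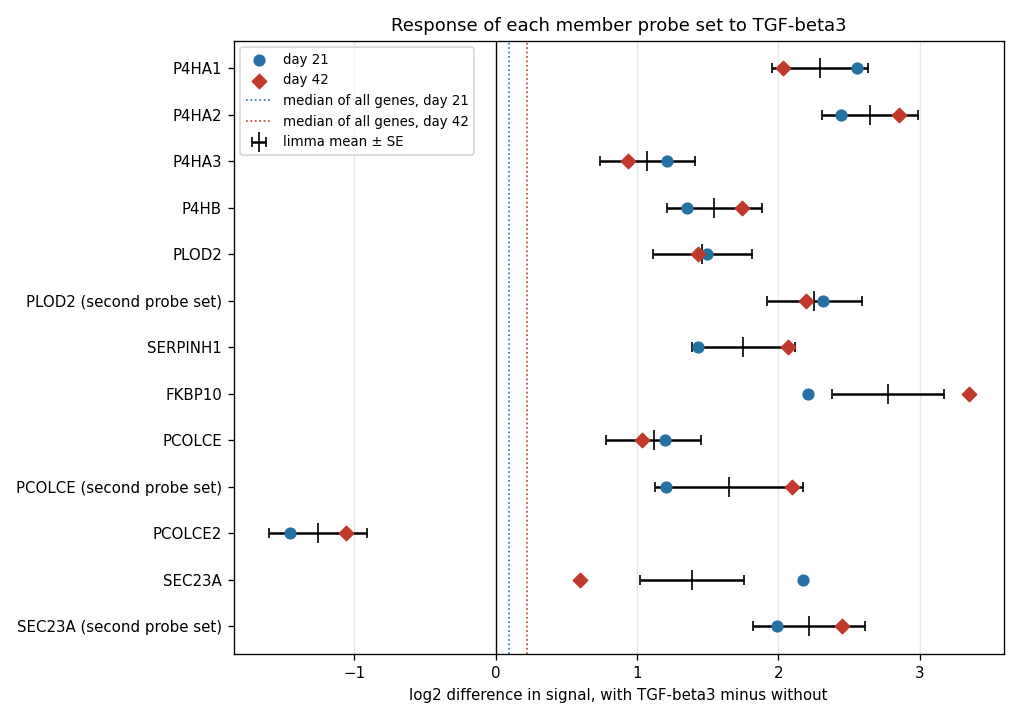
Log2 difference in signal with minus without TGF-beta3 for each of the 13 member probe sets at day 21 (circles) and day 42 (diamonds), with the limma mean and its standard error (1 array per condition). The standard error rests mainly on the spread pooled over probe sets. Only PCOLCE2 lies below 0, and the days differ most for the brighter SEC23A probe set (2.18 and 0.60) and for FKBP10 (2.21 and 3.35).

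By size alone, 9 members were at least 2-fold higher with TGF-beta3 at day 21 and 1 was at least 2-fold lower, where 14.3% of the 6938 genes compared were higher and 14.0% lower. At day 42, 7 were higher and 1 lower, where 25.5% of 7566 genes were higher and 15.7% lower. By the brightest probe sets, P4HA3 and SEC23A were those not past 2-fold at day 42. The second SEC23A probe set was 5.46-fold higher there. Again by the brightest probe sets, the log2 response at day 42 minus that at day 21 ranged from -1.58 for SEC23A to 1.14 for FKBP10. On the second SEC23A probe set it was 0.46. With 1 array a side this difference between the days was not tested. Counting arrays, 8 members had all 3 arrays with TGF-beta3 above all 3 without it, the day 3 and the loaded array included, and PCOLCE2 had them all below. Of 7359 genes, 22.7% lay above in this way and 13.8% below, so the order alone is common on these arrays. This order, and the lack of overlap stated for single genes, is that of the authors' scaling. With spike scaling P4HA3 and PCOLCE were lower with TGF-beta3 at day 42, at log2 -0.38 and -0.28, so their groups overlapped.

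The day 42 sizes depended on the scaling between arrays. Scaling to the hybridisation spikes moved the median difference of all genes at day 42 from log2 0.22 to -1.06, and median centring moved it to -0.32. At day 42 the log2 difference of PCOLCE went from 1.03 to -0.28 with spike scaling, that of P4HA3 from 0.93 to -0.38 and that of SEC23A from 0.60 to -0.72, whereas FKBP10 went from 3.35 to 2.03 and P4HA2 from 2.85 to 1.53. Relative to the median of all genes, 6 members were at least 2-fold up and PCOLCE2 at least 2-fold down at day 42. At day 21, 9 members were up by that much. With the authors' scaling, 19.8% of all genes were up and 20.0% down by that much at day 42. At day 21 the shares were 12.5% and 15.4%. Median centring and spike scaling shift all genes of an array alike and leave the members' distances from that median nearly fixed by construction. The members' counts were the same with quantile normalization, which does not shift all genes alike. Which scaling fits the RNA content of these cultures was not tested.

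**Figure D3:**
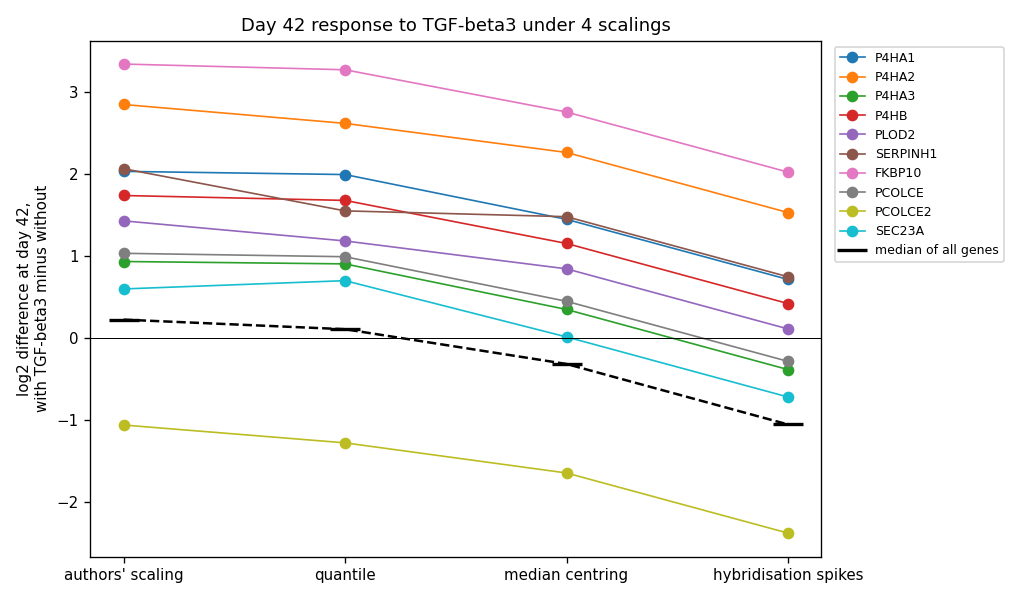
Log2 difference in signal with minus without TGF-beta3 at day 42 for the 10 members (coloured lines, brightest probe set) and the median of all genes (dashed) under the authors' scaling, quantile normalization, median centring and scaling to the spikes. The members move down with the median of all genes, from 0.22 to -1.06, and with median centring and spike scaling, which shift all genes of an array alike, their distance from it is nearly fixed by construction.

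Time without TGF-beta3 divided the members. From day 3 to day 21, P4HA1 went 3.83-fold lower, P4HA2 3.11-fold, SEC23A 2.77-fold and FKBP10 2.51-fold. These 4 were at least 2-fold lower and no member was at least 2-fold higher, where 4.72% of 6759 genes were lower and 7.03% higher. For SEC23A this was the brighter probe set, and the second did not pass, at 1.66-fold lower. P4HB and SERPINH1 were lower by less, with log2 differences of -0.82 and -0.49. The brighter probe sets of PLOD2 and PCOLCE, and P4HA3 and PCOLCE2, lay between -0.08 and 0.19. The spikes differed by -0.51 between these arrays and the 21 ribosomal protein genes by a median of -0.40. Scaled to the spikes, 2 members were at least 2-fold lower instead of 4, where 132 of 7096 genes were lower. Whether fewer cells, other cells or less RNA per cell go with this was not tested.

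The arrays with TGF-beta3 were also set against day 3. Compared with day 3, the day 21 array with TGF-beta3 was 1.54-fold higher for P4HA1, 1.75-fold for P4HA2 and 1.45-fold for P4HB, but 2.77-fold for PLOD2, 2.55-fold for P4HA3 and 2.17-fold for PCOLCE. SERPINH1, FKBP10 and SEC23A were 1.92-fold, 1.84-fold and 1.63-fold higher there, and PCOLCE2 was at 0.42 of its day 3 signal. At day 42 the order was another, with 2.82-fold for FKBP10, 2.77-fold for SERPINH1, 2.55-fold for PLOD2 and 2.26-fold for P4HA2. PCOLCE had 1.98-fold, P4HA3 1.96-fold, P4HB 1.80-fold and P4HA1 1.39-fold. SEC23A was at 0.90 of its day 3 signal, but 2.06-fold higher on its second probe set, and PCOLCE2 was at 0.65. The spikes' median signal was 3727 at day 3 and 7304 at day 42 with TGF-beta3. With all 6 arrays in the fit and no term for day, an alternative added after the data were seen, 8 members rose and PCOLCE2 fell. The exception was SEC23A (adjusted p = 0.185 by limma). Of all 7359 genes tested in that fit, 507 rose and 424 fell.

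From day 21 to day 42 the members changed little by size. Without TGF-beta3 none was at least 2-fold higher or lower, where 3.83% of 6684 genes were higher and 5.49% lower. By the brightest probe sets, SEC23A was highest, at log2 0.72, and FKBP10 lowest, at -0.52. The second SEC23A probe set went the other way, at -0.68. With TGF-beta3 none passed 2-fold either, where 19.7% of 7474 genes were higher and 11.1% lower. Here SEC23A was lowest, at log2 -0.86, and PCOLCE2, FKBP10 and SERPINH1 were highest, at 0.63, 0.62 and 0.53. The second SEC23A probe set differed by -0.22. The spikes were brighter at day 42 by log2 1.19, a larger difference than that of any member. Scaled to the spikes, 5 members were at least 2-fold lower, from -1.31 for PLOD2 to -2.04 for SEC23A. So were 3494 of 7189 genes. With the authors' scaling and relative to the median of all genes, at log2 0.18, the brighter SEC23A probe set was past 2-fold lower, as were 14.6% of genes. With quantile normalization it was not.

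Dynamic compression was measured with 1 loaded and 1 unloaded array at day 42, both with TGF-beta3. No member was at least 2-fold higher or lower by its brightest probe set, where 8.41% of 7703 genes were higher and 7.41% lower. SERPINH1, P4HB, FKBP10, P4HA1 and P4HA2 were lower when loaded, by log2 values from -0.55 to -0.33. P4HA3 was higher by 0.41. PCOLCE was higher by 0.15 on its brighter probe set and lower on the second, at -0.56. PLOD2 and PCOLCE2 differed by -0.02 and 0.03. The spikes were lower on the loaded array by 0.33, and scaled to them these 5 lower genes lay between -0.22 and 0.00 and P4HA3 at 0.74. The second SEC23A probe set was 2.57-fold lower when loaded, while the brighter one differed by log2 -0.14. With no replicate of the loaded culture none of these differences has an error.

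**Figure D4:**
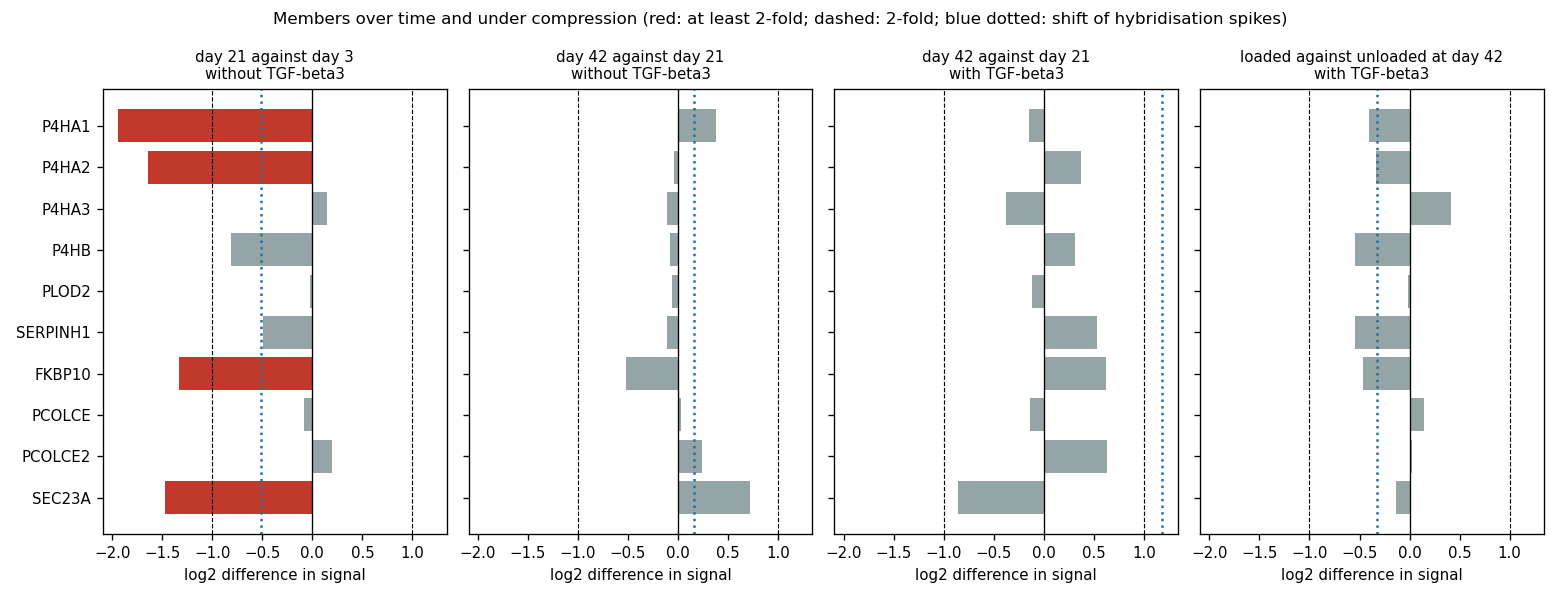
Log2 difference in signal of each member (brightest probe set, 1 array on each side) from day 3 to day 21 and day 21 to day 42 without TGF-beta3, from day 21 to day 42 with it, and from unloaded to loaded at day 42, with dashed lines at 2-fold and a dotted line at the shift of the spikes. P4HA1, P4HA2, FKBP10 and SEC23A pass 2-fold in the first panel, and no member does in the other panels.

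Genes of the rest of the pathway were described by counts. Of all 6835 genes tested, 7.11% rose and 7.7% fell, the shares to set beside each count here and for the lists and markers below. Counts of 1 to 3 in this paragraph are not far above these shares and are not read as results about the lists. Other ER enzymes and chaperones of procollagen had 3 of 20 genes rise and none fall, with a median mean log2 difference of 0.62. They were COLGALT2, a collagen galactosyltransferase (3.45 ± 0.56, adjusted p = 6.73e-06 by limma), and the isomerases FKBP14 and FKBP7. With median centring, spike scaling, no variance trend or no day term, 1 of this list rose. P3H1, a prolyl 3-hydroxylase, had log2 differences of 1.09 and 2.11 and did not pass (adjusted p = 0.127 by limma), and PLOD1 and PLOD3, the other lysyl hydroxylases, had means of -0.34 and 0.76 and did not pass either. Of 13 other ER foldases and oxidases, ERO1A, which reoxidises P4HB, and ERP29 rose, but 0 of them with median centring or spike scaling (limma; 3 and 0 at an unadjusted p under 0.05), and 1 without a variance trend or a day term. In the list of ER stress and secretory transcription factors, ATF4 rose among 9, and none rose in those 4 settings (limma; 0 to 2 at an unadjusted p under 0.05). CREB3L2, a factor known from mouse to drive SEC23A in chondrocytes, had log2 differences of 1.03 and -0.12 and did not pass (adjusted p = 0.478 by limma).

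In the COPII and export list 6 of 18 genes rose and none fell, namely the Golgi matrix protein GOLGA2, the coat subunit SEC13, the GTPase SAR1A and the KDEL receptors KDELR1, KDELR2 and KDELR3, which return ER proteins such as P4HB from the Golgi. The cargo receptor MIA3 had log2 differences of -0.27 and -0.90 and did not pass. With the arrays scaled to their medians 1 gene of this list rose, and none rose scaled to the spikes or without a variance trend (limma; 1 and 6 at an unadjusted p under 0.05). The procollagen chains themselves had 8 of 15 rise and 1 fall, with a median of 1.49. COL11A2, of cartilage fibrils, was higher by at least log2 3.35 at day 21 and by 3.89 at day 42. The one that fell, COL4A1, makes basement membrane collagen, which is not cut to form fibrils (-3.76 ± 0.67). Among propeptidases and their regulators POSTN, FURIN and FN1 rose of 5 tested. LOX and LOXL4, which crosslink the finished collagen, rose of 3 tested. With spike scaling 1 of the propeptidase list and 0 of the lysyl oxidases rose, and without the day term 2 and 0 (limma; for the lysyl oxidases 0 and 2 at an unadjusted p under 0.05). In the chain list 8 rose with median centring too, but 3 with spike scaling, 3 without the day term and 1 without the day 42 array lacking TGF-beta3.

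Genes that low oxygen induces through HIF, a factor of which P4HA1, P4HA2 and PLOD2 are known targets, had 8 of 19 rise and 1 fall (PFKFB3). VEGFA had log2 differences of 4.11 at day 21 and 3.90 at day 42, and ALDOC a mean of 3.04 ± 0.72. The ALDOC mean is a lower bound, as its day 42 signal without TGF-beta3, 11.5, was under the floor. With spike scaling, or without the day term, 3 of this list rose. At day 21 without TGF-beta3, 5 of the 19 were at least 2-fold lower than at day 3 and none was higher. Of all 6759 genes compared, 4.72% were lower and 7.03% higher. Of the members among HIF targets, P4HA1 and P4HA2 were lower by that much and PLOD2 was not, at log2 -0.02. The prolyl and lysyl hydroxylases use iron, oxoglutarate and ascorbate, and in a list of 11 genes for their supply the glucose transporter SLC2A1 rose, which the HIF list holds too, and the iron transporter SLC11A2 and the dehydrogenase IDH1 fell. The lists' members were not tested as sets.

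**Figure D5:**
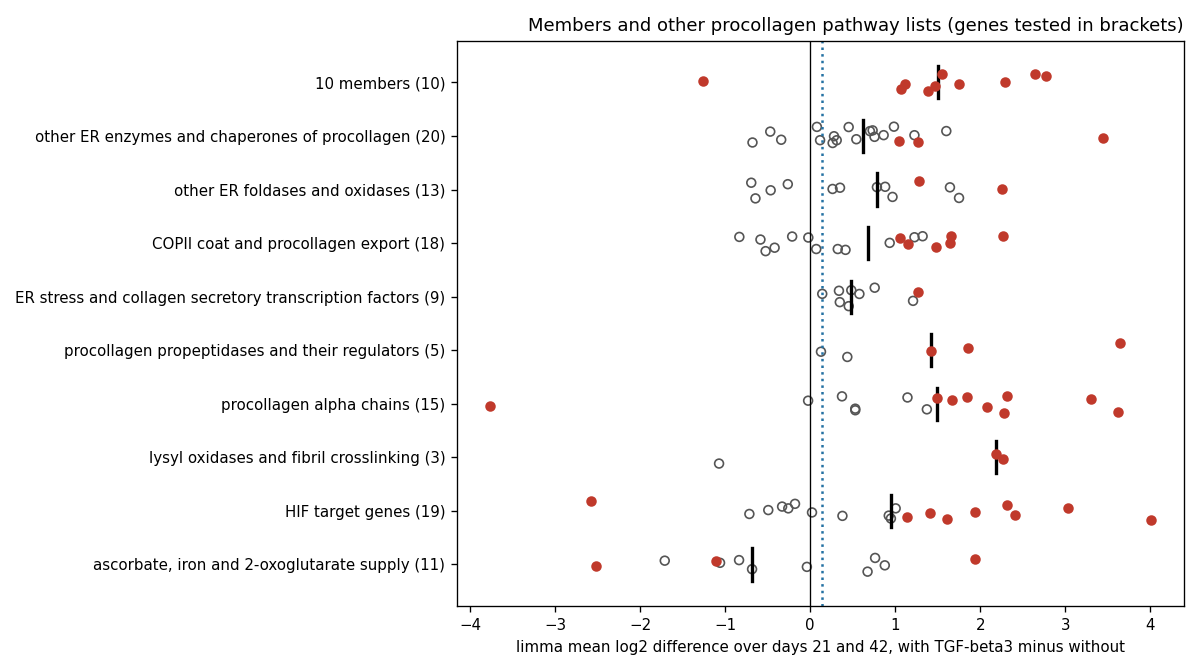
Limma mean log2 difference over days 21 and 42, with minus without TGF-beta3 (4 arrays), for each member and for each gene of 9 other lists (red filled past an adjusted p of 0.05, open otherwise, black bar for the list's median, dotted line for the median of all genes at 0.14). The members' median is 1.51, and those of the other lists run from -0.68 to 2.19.

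Markers of other cell types moved with TGF-beta3 too. All 7 chondrocyte markers tested rose. The signals of the 8 with a probe set summed to 8204 to 10570 without TGF-beta3 and 35150 to 60920 with it. All 6 adipocyte markers tested fell. The 8 with a probe set summed to 5073 to 16260 without TGF-beta3 and 473 to 928 with it. On the arrays without TGF-beta3 that sum was lowest at day 3. Of 8 macrophage and blood markers tested CD68, CD53 and AIF1 fell. The 9 with a probe set summed to 284 to 615 without and 65.7 to 137 with TGF-beta3. Such sums are weighted to the brightest probe sets and are not amounts. The endothelial markers CDH5, VWF and KDR were under the floor on all arrays. Of the marrow stromal markers NT5E rose, CD44, VCAM1, MCAM and CXCL12 fell, and LEPR and NGFR were under the floor throughout. THY1, another such marker, had signals of 7.80 to 95.5. Of 5 smooth muscle markers 4 rose and MYLK fell, of 7 fibroblast and tendon markers COL1A1 and COL1A2 rose, of 2 osteoblast markers none passed, and of 2 endothelial markers ERG rose. The part of these shifts in the members' differences was not tested.

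Genes with the most similar pattern over the 6 arrays were sought for the members with the largest rise and fall, among 6371 named genes above the floor on at least 4 arrays. For FKBP10 they were PAFAH1B2, STT3A and P4HA2, with Pearson r of 0.99 each on log2 signals. STT3A is a catalytic subunit of the enzyme that attaches N-glycans in the ER, and it was higher with TGF-beta3 by log2 0.75 and 0.97 at days 21 and 42. For PCOLCE2 they were GALK2, MKLN1 and PLSCR4, also with r of 0.99. All pairs share the same 6 arrays and their scaling, and with so few points many genes reach such values.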

How the data were processed

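The deposited table holds MAS5 signal intensity on a linear scale for 24128 probe sets on 6 arrays, as named in the submitters' processing notes. The MAS5 version was not stated there. RNA was extracted with TRIZOL, amplified by ribo-SPIA and biotin-labelled, per the labels' protocols. The mean after trimming 2% at each end was 150.0 or 150.1 on every array, as the authors' scaling left it. The 112 control probe sets were left out. Names came from the platform annotation, and all 13 member probe sets had the same symbol in RefSeq through their Entrez identifier. A gene is represented by whichever of its probe sets had the highest mean on the log2 scale.

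Values under the 40th percentile of the table were set to it before log2. With 1 array a side, a difference counted as higher or lower at 2-fold, with no p. TGF-beta3 was tested over 4 arrays with limma 3.58.1 (R 4.3.3), a day term and a variance trend, keeping probe sets that exceeded the floor on 2 or more arrays. "Rose" and "fell" refer to adjusted p under 0.05. The comparisons share arrays. In simulated data for the TGF-beta3 comparison (14839 probe sets) the fit recovered 11.9% of log2 changes of 1, 62.7% of 2 and 100% of 4, and called 9 unchanged probe sets. The simulated noise was independent between arrays and had the fit's own prior spread. No shift of a whole array and no difference between the days was put in. The rates thus hold under the fit's own assumptions and do not cover such shifts on these arrays. Tables and figures were made in Python 3.11.15.

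The members and lists were chosen with earlier results of these data known. All member probe sets are reported, and of each other list up to 2 called genes with the largest mean difference, plus genes named after their values were seen: those of 5 or fewer that were called, P3H1, PLOD1, PLOD3, CREB3L2, SEC13, SAR1A, KDELR2, KDELR3, MIA3, THY1 and the markers under the floor. The alternatives were other scalings, floors, probe set choices, size rules, variance models and samples.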

Additional observations from a re-analysis of the deposited data

How the results depend on the processing

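The limma count of 9 members that rose and 1 that fell was the same with quantile normalization, with floors at the 25th or 60th percentile, with the floor value added, with probe sets of a gene summarised by their median, and when the loaded array replaced the unloaded. With median centring 5 rose (P4HA1, P4HA2, PLOD2, SERPINH1 and FKBP10), and with spike scaling 0 rose (limma; 2 at an unadjusted p under 0.05). Without a variance trend 3 rose (P4HA1, P4HA2 and FKBP10) and 0 fell, and without the day term 6 rose and 0 fell (limma; 9 and 1 at an unadjusted p under 0.05 in both fits). Leaving out 1 array, with no day term, meant a lone array was assumed to vary like the other arm. Then between 3 and 9 rose and between 0 and 1 fell. The low values came without the day 21 or the day 42 array lacking TGF-beta3, where P4HA1, P4HA2 and FKBP10 were called, and the high ones without either array with it. All 9 means stayed above 0 and that of PCOLCE2 below 0 in all these fits. By size at day 21, 4 members were past 3-fold higher and 0 lower, where 401 and 511 of 6938 genes were. At day 42 none was past 3-fold lower (0), where 632 of 7566 genes were. Spike scaling left 2 members higher at day 42, where 465 of 7249 genes were, with PCOLCE reversed at -0.28. It put 5 lower from day 21 to day 42 with TGF-beta3, where 3494 of 7189 genes were lower too. From day 3 to day 21 it left 2 lower, where 132 of 7096 genes were. Median centring put 1 lower from day 21 to day 42 with TGF-beta3, where 1283 of 7379 genes were. Without it 1 was higher, where 751 of 6838 genes were. At 1.5-fold, 2 were higher and 1 lower with TGF-beta3 from day 21 to day 42, where 2506 and 1515 of 7474 genes were. Without it 1 was higher, where 871 of 6684 genes were. Past 3-fold, 2 were lower from day 3 to day 21, where 90 of 6759 genes were. The causes were not tested. Precision is limited by 1 array per condition.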
